A study of Mus musculus with 2 samples.

Results

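Alveolar lipofibroblasts are resident fibroblasts of the alveolar wall that carry *Tcf21*, *Npnt* and *Itga8*, and the cells described here are those of them in which no transcript of the adventitial fibroblast genes *Dcn*, *Pi16* or *Mfap5* was counted. They were 3360 of 19622 cells, 2189 of 9634 in library 1 and 1171 of 9988 in library 2. The cells came from lungs of wild type (*Lrat*+/+) C57BL/6 male mice aged 3 months, untreated, digested with pronase and collagenase, and sorted alive by their own fluorescence at 455 nm under UV light, the light that stored retinyl esters give off (UV-positive cells). The sort was carried out and sequenced on separate occasions, which gave 2 libraries of 1 condition with no control group, and the sources used here do not say how many mice went into each. Since every cell passed the UV gate, none of the groups compared below stands for cells without retinoid.

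Lung fibroblasts of the alveolar wall lie between the capillary endothelium and the epithelium, keep lipid droplets and, like the stellate cells of the liver, store vitamin A as retinyl esters made by *Lrat*. They are known as a source of growth factors for type II epithelial cells. Adventitial fibroblasts lie instead in the cuffs around vessels and airways, make much of the loose collagenous matrix there, and are known for *Dcn* (decorin), *Pi16* and *Mfap5*, a microfibril protein.

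The cells were selected on measured counts of unique molecular identifiers (UMIs, each standing for 1 captured transcript). A cell had at least 200 genes and at most 10% mitochondrial UMIs, and at least 0.2% of its UMIs in 6 stromal genes (*Col1a1*, *Col1a2*, *Col3a1*, *Mfap4*, *Dcn* and *Pdgfra*, called S6). It held at least 3 UMIs of *Tcf21*, *Npnt* and *Itga8* together, fewer than 2 of *Hhip* and *Aspn*, which mark other lung fibroblasts, and 0 of *Cdh5*, *Pecam1*, *Epcam* and *Ptprc*, which mark endothelial, epithelial and immune cells. It also held 0 UMIs of *Dcn*, *Pi16* and *Mfap5*. The cells are called *Mfap5*-negative lipofibroblasts below, after the gene that removed most of the cells. As these counts chose the cells, their levels against other cells are a description, and no p-value is given for them.

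The last condition did most of the selecting. Of the 9634 and 9988 kept cells (library 1 first, here and below), 7982 and 8418 passed the stromal condition, 7698 and 7159 the condition on the lineage markers, 7459 and 6634 that on *Hhip* and *Aspn*, and 7046 and 6592 that on the alveolar genes. The absence of *Dcn*, *Pi16* and *Mfap5* then left 2189 cells (22.7% of kept cells, exact 95% interval 21.9 to 23.6%) and 1171 cells (11.7%, 11.1 to 12.4%), a mean of 17.2% ± 7.78 (SD, n = 2 libraries). The 2 libraries thus differed in this share by far more than counting error.

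**Figure D1:**
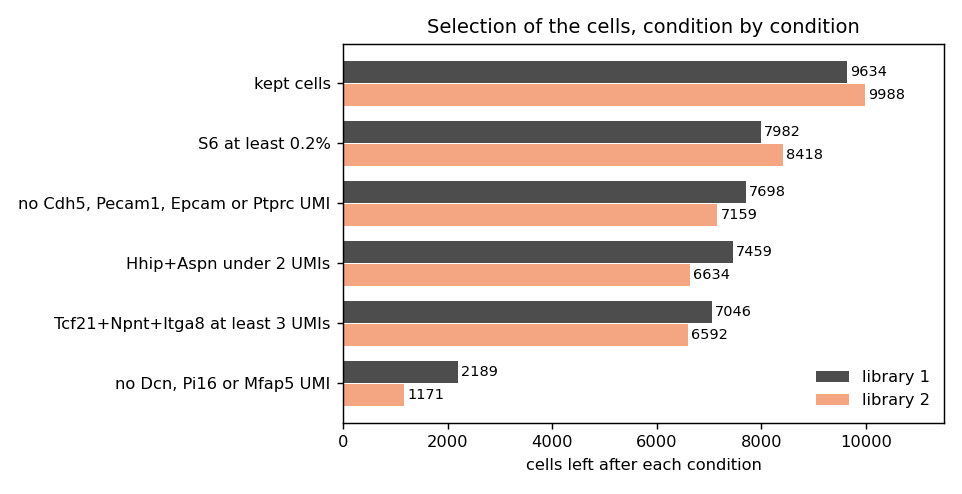
Cells left after each condition of the selection (x axis, number of cells) in library 1 (grey) and library 2 (orange), where S6 is the share of a cell's UMIs in 6 stromal genes. The first 4 conditions leave 7046 of 9634 and 6592 of 9988 cells, and the absence of Dcn, Pi16 and Mfap5 takes the cells from 7046 to 2189 in library 1 and from 6592 to 1171 in library 2.

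*Mfap5* made up nearly all of that last step. Among the 7046 and 6592 cells past the other conditions, 66.7% and 81.2% held a UMI of *Mfap5*, 21.6% and 23.6% one of *Dcn*, and 1.60% and 0.683% one of *Pi16*. *Mfap5* was the sole gene of the 3 that was counted in 3323 of these cells (47.2%) in library 1 and in 3854 (58.5%) in library 2. *Mfap5* without *Dcn* or *Pi16* was thus the most common state of these cells, and those described here are the ones in which none of the 3 genes was counted.

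Depth moved with this selection. The *Mfap5*-negative lipofibroblasts had a median of 3302 and 5572 UMIs and 1583 and 2277 genes, where the cells removed by the last condition had 4823 and 7374 UMIs. All other kept cells had 4984 and 8103. When each cell was thinned to 2000 UMIs before the conditions were applied, 2612 of 8474 and 2741 of 9801 cells passed, a mean of 29.4% ± 2.02 (SD, n = 2), so the share was larger and the libraries came close together. At equal depth, 53.7% and 56.6% of the cells that had passed the other conditions still held *Mfap5*. The mitochondrial share was similar in these lipofibroblasts (median 1.23% and 2.20%) and in all other cells (1.27% and 2.33%).

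For levels, the UMIs of all cells of a group were added up within a library and scaled to a total of 1000000 (CPM), and ratios are formed within each library. A gene is counted as higher or lower where the ratio was at least 2-fold in the same direction in both libraries, among genes whose values averaged 10 CPM or more in the groups compared, and outside the 17 genes of the selection. Intervals on ratios are exact and cover counting error only, and the spread over cells and mice is not in them. The comparison cells were all 16262 other kept cells and a group of 1688 fibroblasts (*Dcn* or *Pi16* fibroblasts, 880 and 808 cells). The latter met the same stromal, lineage, *Hhip* and *Aspn* conditions and held *Pi16* or at least 3 UMIs of *Dcn*, with no condition on the alveolar genes. They were deeper, at a median of 5929.5 and 10306 UMIs. They are not the nearest fibroblasts, since cells with 1 UMI of *Dcn*, *Pi16* and *Mfap5* were closer, as given below.

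The alveolar part of the name was checked with *Slc7a10* and *Ces1d*, markers of alveolar lipofibroblasts that the selection did not use. Storage of lipid or retinoid was not checked by them. Of the genes given below, *Lrat* and *Lpl* lay below the *Dcn* or *Pi16* fibroblasts and *G0s2* above. *Slc7a10* (chr7:35186385-35201114, + strand, GRCm38, protein coding) encodes a transporter of small neutral amino acids. It was at 335 and 175 CPM in the *Mfap5*-negative lipofibroblasts, 101 and 69.1 in all other cells and 26.2 and 19.2 in the *Dcn* or *Pi16* fibroblasts. The ratio to all other cells was 3.31 (3.14 to 3.48) and 2.53 (2.38 to 2.70), and that to the *Dcn* or *Pi16* fibroblasts was 12.8 (10.8 to 15.3) and 9.11 (7.75 to 10.7). The summed levels of the groups did not overlap for this gene, although that of the lipofibroblasts in library 2 was 0.523 times that in library 1. The share of all genes with such a gap was not counted. Single cells were not all marked by *Slc7a10*. Of the thinned lipofibroblasts, 50.8% in library 1 and 70.0% in library 2 held no UMI of it.

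*Ces1d* (chr8:93166068-93197838, − strand, GRCm38), a carboxylesterase and lipase, was at 674 and 647 CPM against 404 and 356 in all other cells and 146 and 222 in the *Dcn* or *Pi16* fibroblasts. The level was higher than in the latter by 4.60 and 2.92 times and stayed under 2-fold against all other cells. Reads of this gene can be shared with close copies of its family, of which *Ces1e*, *Ces1f* and *Ces1c* were at 0 in these cells. With cells thinned to 2000 UMIs, 83.1% and 75.9% of the lipofibroblasts held *Slc7a10* or *Ces1d*, against 19.8% and 29.95% of the *Dcn* or *Pi16* fibroblasts and 2.97% and 1.51% of cells with *Ptprc*, an immune gene (101 and 265 cells, with median depths of 3554 and 5672 UMIs before thinning). The share was 54.0% and 50.3% in all other cells, and 20.2% and 42.5% in fibroblasts with at least 2 UMIs of *Hhip* and *Aspn*. Cells with either marker were thus at the highest share in the lipofibroblasts among the groups compared, and were common among all other cells too.

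**Figure D2:**
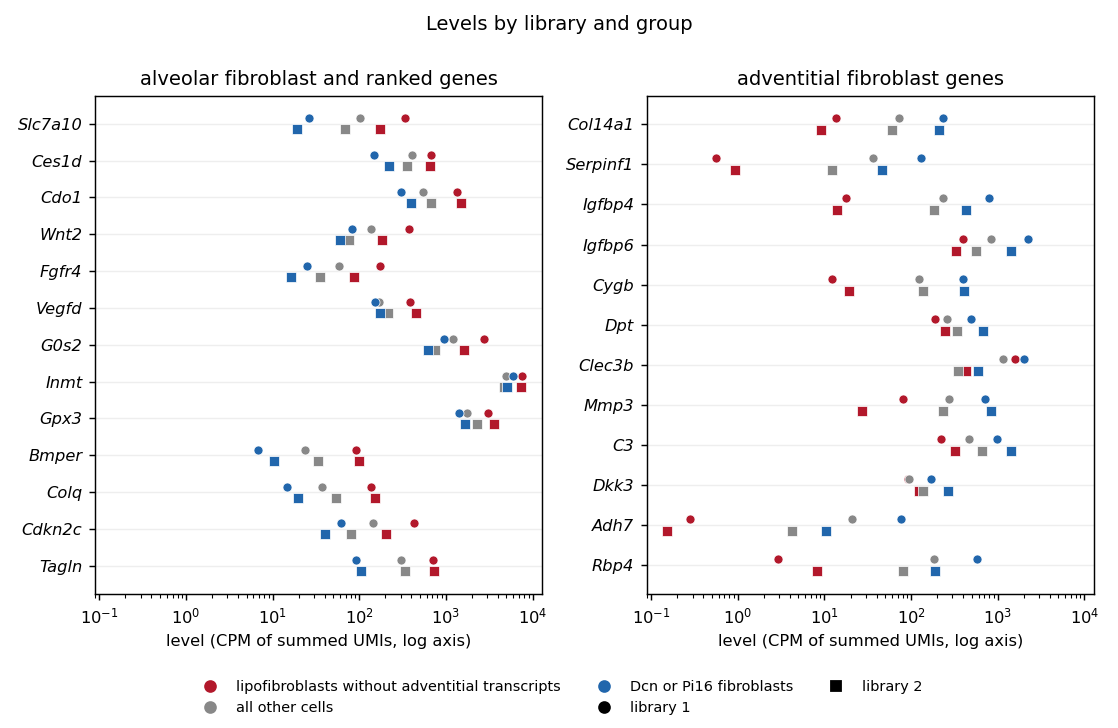
Levels (x axes, CPM of summed UMIs on log axes) of alveolar fibroblast and ranked genes (left) and of adventitial fibroblast genes (right) in library 1 (circles) and library 2 (squares). Red marks the Mfap5-negative lipofibroblasts, grey all other cells and blue the Dcn or Pi16 fibroblasts. In the left panel Slc7a10 sits at 335 and 175 CPM in red against 26.2 and 19.2 in blue, and in the right panel Igfbp4 sits at 17.6 and 14.1 in red against 789 and 431 in blue.

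Of the 17 listed alveolar fibroblast genes, 6 were higher and 0 lower than in all other cells, where 0.533% of all 8445 genes were higher (45 genes) and 4.52% lower (382 genes). The 45 genes depended on both libraries and on the cells used, with 195 in library 1 alone, 56 in library 2 alone and 23 when the rule was applied to thinned cells. The median log2 ratio of the list was 0.79 and 0.66, beside 0.21 and 0.05 over all genes. Besides *Slc7a10* the 6 listed genes were *Wnt2*, *Fgfr4*, *Cdo1*, *Vegfd* and *G0s2*. The list was drawn up with earlier results of these data known, so its direction is not independent of them.

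*Wnt2* (chr6:17988940-18030585, − strand), a ligand of canonical Wnt signaling, was at 377 and 183 CPM, against 137 and 77.1 in all other cells. *Fgfr4*, a receptor of fibroblast growth factors, was at 175 and 87.1 CPM against 58.2 and 35.7. Both genes were at less than 0.5 times the library 1 level in library 2, and in each library the lipofibroblasts were above the other groups. *Cdo1*, the enzyme that oxidizes cysteine to its sulfinic acid, was steadier between the libraries, at 1338 and 1493 CPM against 540 and 670. *Vegfd*, a ligand of lymphatic and blood vessel growth factor receptors, was at 389 and 449 CPM against 168 and 216. *G0s2*, an inhibitor of the triglyceride lipase *Pnpla2*, was at 2753 and 1613 CPM against 1193 and 739.

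The other listed genes did not reach 2-fold in both libraries. *Inmt*, an amine N-methyltransferase, was at 7510 and 7365 CPM against 4895 and 4738. *Gpx3*, a secreted glutathione peroxidase, was at 3041 and 3569 against 1761 and 2277. *Col13a1*, which names the *Col13a1* class of lung fibroblasts, was at 398 and 337 against 203 and 214. *Cxcl14*, a chemokine, was level with other cells at 750 and 799 CPM against 804 and 919, and *Fgf10*, a ligand for epithelial growth, at 56.9 and 58.3 against 43.4 and 64.7.

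By rank, the genes with the largest ratios to all other cells were *Bmper*, *Colq*, *Ccdc42*, *Tmc6*, *Cdkn2c*, *Slc7a10*, *Fabp3*, *Fat3*, *Fgfr4* and *Tnc*. *Bmper* (chr9:23223076-23485200, + strand), a secreted regulator of bone morphogenetic proteins, was at 91.9 and 101 CPM against 24.0 and 33.5, a ratio of 3.84 (3.47 to 4.24) and 3.00 (2.75 to 3.26). *Colq*, the collagen-like tail of acetylcholinesterase, was at 136 and 154 CPM against 36.9 and 54.4. *Cdkn2c*, an inhibitor of the cyclin-dependent kinases of early G1, was at 426 and 205 against 144 and 80.2. *Fabp3*, a cytosolic fatty acid binding protein, was at 107 and 94.1 against 35.3 and 37.4. *Tnc*, the matrix glycoprotein tenascin C, was at 36.4 and 47.8 against 15.3 and 18.5. Of the 45 genes that were higher than in all other cells, 42 were also higher than in the *Dcn* or *Pi16* fibroblasts. That is 93.3% of the first list and 19.9% of the second, and the 2 comparisons share the lipofibroblasts.

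The genes with the smallest ratios to all other cells were *Igkc*, *Kdr*, *Ccl5*, *H2-Ab1*, *Ly6a*, *H2-Eb1*, *H2-Aa*, *Cd74*, *Cd52* and *Lyve1*. These are immunoglobulin, endothelial, T cell, antigen presentation and lymphatic genes, known from cell types whose markers the lineage condition barred. *Cd74*, the invariant chain of class II molecules, was at 37.6 and 33.4 CPM in the lipofibroblasts against 1731 and 1315.

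The comparison with the *Dcn* or *Pi16* fibroblasts set aside those other cell types. Here 211 genes (2.56% of 8240) were higher and 293 (3.56%) lower in the *Mfap5*-negative lipofibroblasts. Of the 17 alveolar genes 8 were higher, with *Ces1d* and *Gpx3* added to the 6 above, and 1 was lower, *Adh1*, an alcohol dehydrogenase that also oxidizes retinol, at 86.2 and 82.8 CPM against 260 and 238. Of the 12 adventitial genes that passed the filter, 10 were lower and 0 higher. Their median log2 ratio was -3.63 and -4.47, beside 0.15 and 0.07 over all genes. The *Dcn* or *Pi16* fibroblasts were defined by 2 of the genes that the lipofibroblasts had to lack, so the gap in related genes is a description of that choice.

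The adventitial genes differed much in how low they were. *Serpinf1*, a secreted inhibitor of vessel growth, was at 0.558 and 0.918 CPM against 131 and 46.4. *Adh7*, an alcohol dehydrogenase active on retinol, was at 0.279 and 0.153 against 77.1 and 10.4. *Igfbp4*, a binding protein of insulin-like growth factors, was at 17.6 and 14.1 against 789 and 431, and *Cygb*, cytoglobin, at 12.1 and 19.1 against 399 and 407. *Col14a1*, a fibril-associated collagen that names the *Col14a1* class of lung fibroblasts, was at 13.5 and 9.03 against 232 and 208. Others stayed well expressed. *Igfbp6*, another such binding protein, was at 395 and 331 CPM against 2218 and 1433, and *Dpt*, dermatopontin, at 191 and 247 against 497 and 679.

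*Clec3b*, tetranectin, was at 1603 and 428 CPM, less than 2-fold under the *Dcn* or *Pi16* fibroblasts at 2003 and 594 and above the 1158 and 352 of all other cells. *Dkk3*, a secreted Wnt modulator, was at 91.6 and 122 against 171 and 267. The cells were therefore without counts of the 3 adventitial genes of the selection but not without transcripts of every gene on the adventitial list. Over its 14 genes the summed level was 2630 and 1527 CPM in the lipofibroblasts, 3761 and 2758 in all other cells and 8826 and 6552 in the *Dcn* or *Pi16* fibroblasts.

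The largest ratios to the *Dcn* or *Pi16* fibroblasts were those of *Bmper*, *Slc7a10*, *Colq*, *Hopx*, *Tmc6*, *Fat3*, *Gucy1b1*, *Tagln*, *Retreg1* and *Tnc*. *Bmper* was 13.7 (9.77 to 19.7) and 9.73 (7.82 to 12.2) times higher. *Hopx*, a homeodomain cofactor best known in type I epithelial cells, was at 132 and 157 CPM against 12.5 and 20.8. *Gucy1b1*, a subunit of the nitric oxide receptor guanylate cyclase, was at 73.5 and 43.6 against 7.66 and 6.23, and its partner *Gucy1a1* at 117 and 51.7 against 18.1 and 7.89. The 2 subunits were thus higher together in both libraries.

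The smallest ratios were those of *Ildr2*, *Gabra3*, *Sema3d*, *Igfbp5*, *Adh7*, *Ahnak2*, *Slco2b1*, *Serpinf1*, *Fndc1* and *Col15a1*. *Gabra3*, a subunit of GABA receptors, was at 0.279 and 0.153 CPM against 48.9 and 47.4. *Sema3d*, a secreted guidance protein, was at 0.139 and 0.459 against 58.5 and 73.6. *Col15a1*, a collagen of basement membrane zones, was at 0.139 and 1.07 against 57.5 and 51.4. These genes were at the level of a few UMIs over all the lipofibroblasts of a library.

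The border of the selection was gradual. Cells that met every other condition and held just 1 UMI of *Dcn*, *Pi16* and *Mfap5* numbered 1167 and 847, with a median of 3803 and 5794 UMIs. *Slc7a10* was at 335, 287, 243 and 97.4 CPM in cells of library 1 with 0, 1, 2 and 3 or more such UMIs. In library 2 it was at 175, 167, 137 and 73.2 CPM. *Wnt2* was at 377, 324, 271 and 155 CPM in library 1 and at 183, 156, 141 and 91.4 in library 2. *Cygb* ran the other way, at 12.1, 26.2, 47.9 and 199 CPM in library 1 and 19.1, 38.5, 48.8 and 217 in library 2. For *Slc7a10* and *Wnt2*, cells just outside were thus close to cells just inside, and most of the distance lay in cells with 3 or more UMIs. Those cells were also the deepest, at a median of 5490 and 8209 UMIs. *Cygb* in contrast already rose in ratio at the first step. *Rbp4* was at 2.93, 15.9, 81.9 and 227 CPM in library 1 and at 8.11, 5.88, 12.4 and 83.1 in library 2. The part of depth in this gradient was not tested.

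**Figure D3:**
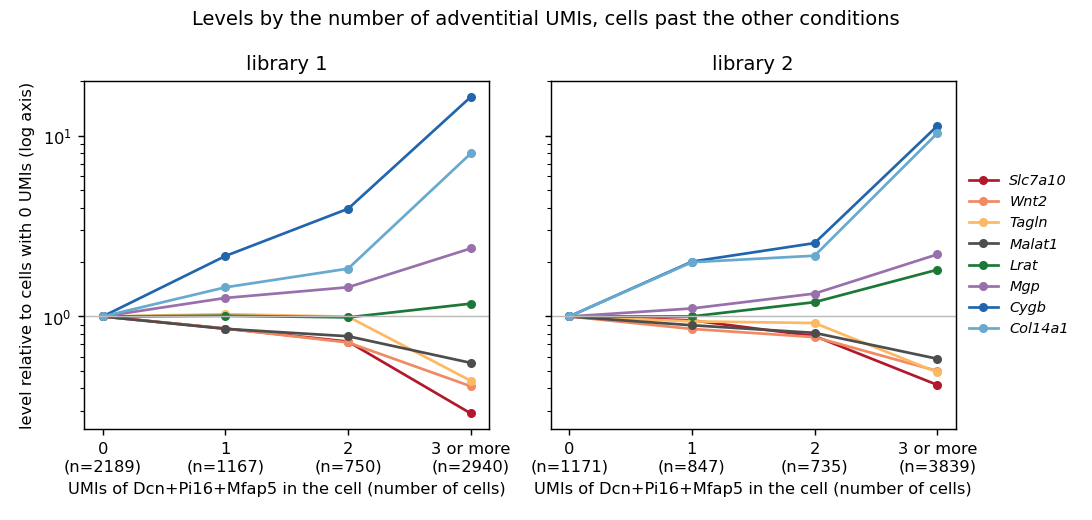
Levels of 8 genes in cells past all other conditions, by the number of Dcn, Pi16 and Mfap5 UMIs in the cell (x axes, with the number of cells), each divided by its level in cells with 0 such UMIs (y axis, log scale) for library 1 (left) and library 2 (right). The leftmost points are the Mfap5-negative lipofibroblasts, and Slc7a10 goes from 335 to 97.4 CPM in library 1 while Cygb goes from 12.1 to 199.

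The other thresholds touched few cells. In the lipofibroblasts the alveolar genes had a median of 14 and 26 UMIs, and 71 and 10 cells were at the minimum of 3. Cells with 2 UMIs that met the other conditions numbered 75 and 4. S6 lay between 0.2 and 0.25% in 63 and 46 of them, where *Slc7a10* was at 244 and 152 CPM, and between 0.15 and 0.2% in 37 and 33 cells just outside, where it was at 119 and 120.

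The retinoid genes showed which steps of vitamin A handling were transcribed. Of the 29 listed genes 13 passed the filter against all other cells, of which 0 were higher and 1 lower (0.533% and 4.52% of all genes), and 15 passed it against the *Dcn* or *Pi16* fibroblasts, of which 0 were higher and 3 lower (2.56% and 3.56% of all genes). *Lrat* (chr3:82892579-82903973, − strand), the enzyme that makes retinyl esters, was at 294 and 90.5 CPM in the *Mfap5*-negative lipofibroblasts, 229 and 111 in all other cells and 387 and 247 in the *Dcn* or *Pi16* fibroblasts. It was 1.28 (1.22 to 1.35) times the level of all other cells in library 1 and 0.817 (0.750 to 0.888) times in library 2, so the libraries went in opposite directions. Against the *Dcn* or *Pi16* fibroblasts it was 0.761 and 0.366 times. At 2000 UMIs, 39.4% and 13.8% of the lipofibroblasts held an *Lrat* UMI, against 45.1% and 33.5% of the *Dcn* or *Pi16* fibroblasts and 0% and 0.377% of *Ptprc* cells. The first is 0 of 101 cells, which allows a share of up to 2.97%.

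*Rbp4*, which carries retinol out of cells and in plasma, stood apart at 2.93 and 8.11 CPM against 183 and 80.2 in all other cells and 583 and 188 in the *Dcn* or *Pi16* fibroblasts. It is on both the retinoid and the adventitial list. *Aldh1a1*, which oxidizes retinaldehyde to retinoic acid, was at 766 and 1916 CPM against 501 and 1254, the most abundant retinaldehyde dehydrogenase in these cells. *Aldh1a2* was at 0 in both libraries and *Aldh1a3* at 0 and 0.153 CPM.

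*Dhrs3*, which turns retinaldehyde back to retinol, was at 78.4 and 68.7 CPM, and the retinol dehydrogenases *Rdh10* and *Rdh11* at 8.64 and 8.72 and at 10.5 and 16.5. *Crabp1*, a carrier of retinoic acid, was at 12.7 and 5.20 CPM against 1.88 and 1.62 in all other cells and was too low for the filter. Of the receptors, *Rara* was at 29.1 and 38.1 CPM, *Rarg* at 44.5 and 45.6 and *Rxra* at 24.8 and 32.3, each within 2-fold of the other groups, and *Rarb* was at 0 in both. *Stra6*, the retinol transporter, and *Cyp26a1*, which degrades retinoic acid, were at 0 UMIs as well, which allows up to 0.418 and 0.459 CPM. Transcripts for making retinyl esters (*Lrat*) and for oxidizing retinaldehyde (*Aldh1a1*) were thus counted, and those of *Stra6* and *Cyp26a1* were not detectable at this depth.

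**Figure D4:**
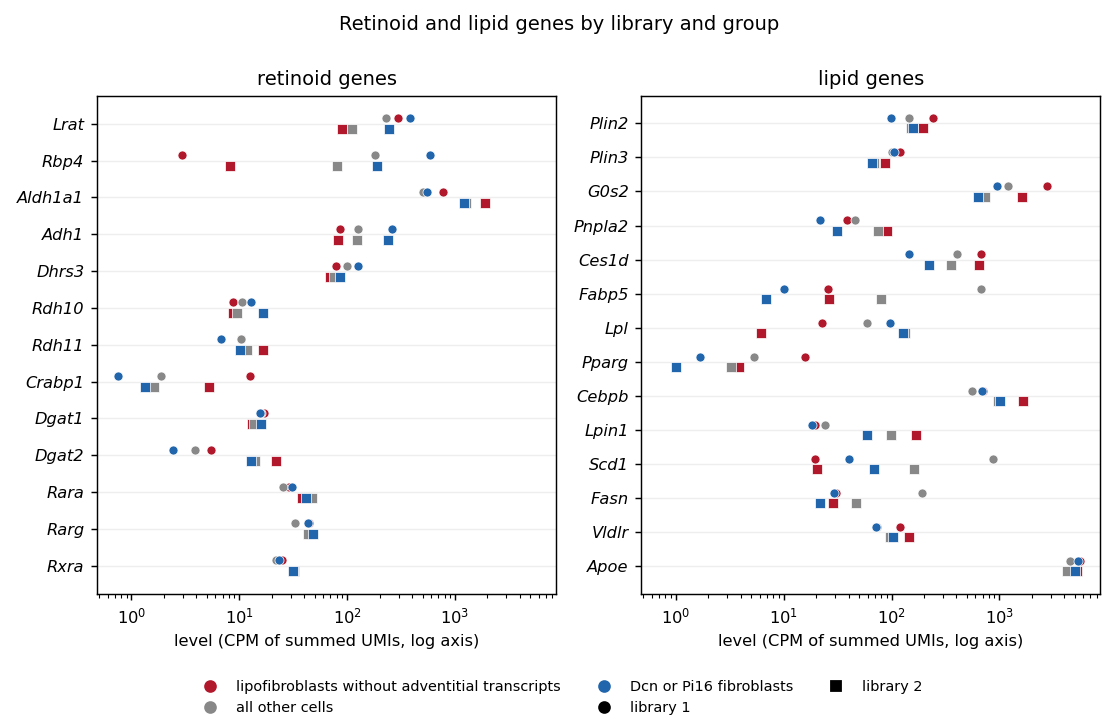
Levels (x axes, CPM of summed UMIs on log axes) of retinoid genes (left) and lipid genes (right) in library 1 (circles) and library 2 (squares) for the Mfap5-negative lipofibroblasts (red), all other cells (grey) and Dcn or Pi16 fibroblasts (blue). Lrat lies at 294 and 90.5 CPM in red, between the other groups in library 1 (229 and 387) and below both in library 2 (111 and 247), while Rbp4 (2.93 and 8.11) and Lpl (22.9 and 6.12) lie below them in both libraries.

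The lipid genes went in both directions. Of 30 listed genes past the filter, 1 was higher than in all other cells (*G0s2*) and 5 lower, beside 0.533% and 4.52% of all genes. Of 27 against the *Dcn* or *Pi16* fibroblasts 3 were higher and 2 lower, beside 2.56% and 3.56%. *Plin2*, the coat protein of lipid droplets, was at 241 and 196 CPM against 146 and 152 in all other cells. *Plin3* was at 120 and 87.4 CPM, and *Plin5* and *Cidec*, droplet proteins of muscle and fat, were at 0. *Pparg*, the regulator of fat cell genes, was at 15.6 and 3.83 CPM against 5.28 and 3.27 and did not pass the filter.

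*Lpl*, lipoprotein lipase, was lower in these cells at 22.9 and 6.12 CPM, against 58.7 and 135 in all other cells and 95.8 and 129 in the *Dcn* or *Pi16* fibroblasts. *Cd36*, a fatty acid receptor of endothelium and macrophages, was at 8.92 and 15.8 CPM against 186 and 359. *Scd1*, *Cebpa* and *Fabp5*, which type II epithelial cells also express, were lower than in all other cells, although *Fabp5* was slightly above them (mean log2 ratio 0.10) when cells with over 1% *Sftpc* UMIs were left out. *Fabp5* at 25.7 and 26.5 CPM was above the 10.1 and 6.89 of the *Dcn* or *Pi16* fibroblasts. *Apoe*, the apolipoprotein, was at 5546 and 5287 CPM and *Vldlr*, a receptor that binds it, at 119 and 146, both near the other groups.

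Signals and receptors differed in both directions between the 2 kinds of fibroblast. Of 23 listed genes past the filter against the *Dcn* or *Pi16* fibroblasts, 5 were higher (*Wnt2*, *Fgfr4*, *Vegfa*, *Vegfd* and *Angpt1*) and 6 lower, beside 2.56% and 3.56% of all genes. The median log2 ratio of the list was 0.08 and -0.03, with 10 genes above and 10 below in both libraries. *Vegfa*, the main growth factor of endothelium, was at 293 and 158 CPM against 63.3 and 45.1. *Angpt1*, a ligand of the endothelial receptor Tie2, was at 279 and 392 against 122 and 140. Those 3 genes besides *Wnt2* and *Fgfr4* encode vessel growth factors. On the lower side *Cxcl12*, a chemokine for *Cxcr4*, was at 8.51 and 8.27 CPM against 143 and 135, and *Sfrp1*, a secreted Wnt antagonist, at 16.0 and 22.7 against 134 and 193. *Igf1*, insulin-like growth factor 1, was at 50.8 and 50.1 against 114 and 131, and *Wnt5a*, a noncanonical Wnt ligand, at 11.7 and 19.0 against 45.4 and 55.6. *Csf1* and *Pdgfrb* completed the lower genes.

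Of 26 matrix genes past the filter in that comparison 2 were higher and 9 lower, beside 2.56% and 3.56% of all genes, and the median log2 ratio was -0.58 and -0.82. *Fn1*, fibronectin, was at 1072 and 1232 CPM against 333 and 489, and *Tnc* was the other. *Eln*, elastin, was at 377 and 172 against 896 and 532, and *Mmp2*, a gelatinase, at 163 and 106 against 397 and 468. Basement membrane collagen *Col4a1* was within 2-fold at 262 and 309 against 276 and 430. Against all other cells *Tnc* was higher and *Col14a1* lower of 25 matrix genes, beside 0.533% and 4.52% of all genes.

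Among 18 transcription factor genes past the filter, 0 were higher and 3 lower than in the *Dcn* or *Pi16* fibroblasts, beside 2.56% and 3.56% of all genes. The median log2 ratio was 0.02 and -0.15. *Gata6* was at 2.51 and 1.84 CPM against 33.8 and 39.0, *Foxf1* at 10.3 and 15.2 against 56.8 and 43.8, and *Klf4* at 83.2 and 36.4 against 419 and 249. The lung mesenchyme factors *Tbx2* (329 and 278 CPM), *Tbx4* (160 and 187) and *Tbx5* (64.1 and 98.3) were within 2-fold of that group. These are known regulators of lung mesenchyme development.

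*Tagln*, an actin-binding protein of smooth muscle and other contractile cells, was higher at 713 and 733 CPM against 304 and 342 in all other cells and 91.9 and 105 in the *Dcn* or *Pi16* fibroblasts. *Acta2*, smooth muscle actin, was at 11.0 and 71.8 CPM against 77.7 and 60.7, and *Myl9* at 6.41 and 22.7 against 66.5 and 46.0. *Des*, desmin, was, like *Tagln*, higher than in the *Dcn* or *Pi16* fibroblasts at 88.0 and 89.7 against 24.8 and 21.5. *Myh11* was at 0.139 and 15.6 CPM and *Cnn1* at 0 and 3.67. Over the contractile list 2 of 6 genes past the filter were higher and 2 lower in that comparison, beside 2.56% and 3.56% of all genes.

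Against the 764 fibroblasts with at least 2 UMIs of *Hhip* and *Aspn* (239 and 525 cells), 111 genes (1.35% of 8249) were higher and 283 (3.43%) lower. *Slc7a10* was at 28.5 and 38.6 CPM in those cells, *Tagln* at 117 and 301, *Acta2* at 108 and 229 and *Col14a1* at 397 and 157. For *Slc7a10* and *Col14a1* they lay nearer in ratio to the *Dcn* or *Pi16* fibroblasts than to the *Mfap5*-negative lipofibroblasts.

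Markers of other cell types were few in these cells but not all at 0. Of 8 epithelial markers all 8 were lower than in all other cells, beside 4.52% of all genes. The selection barred cells with *Epcam*, *Ptprc*, *Cdh5* or *Pecam1*, so such counts are in part a description of that choice. Against the *Dcn* or *Pi16* fibroblasts 3 of 5 epithelial markers past the filter were higher and 0 lower, beside 2.56% and 3.56% of all genes. The 8 epithelial markers summed to 1548 and 1218 CPM against 72642 and 12196 in all other cells. *Sftpc*, surfactant protein C of type II epithelial cells, made up most of that at 1293 and 987 CPM, against 328 and 94.5 in the *Dcn* or *Pi16* fibroblasts. In 9 and 5 lipofibroblasts (0.411% and 0.427%) it held over 1% of the UMIs, up to 16.97% and 13.9%. Without such cells *Sftpc* was at 451 and 117 CPM in the lipofibroblasts and 318 and 89.7 in all other cells, which turns the direction, as it does for *Sftpa1* and *Sftpb* (mean log2 ratios of 0.28 and 0.36). *Krt8*, *Krt18* and *Cdh1*, which define epithelial cells, were at 1.38 to 2.79 CPM. *Ager*, a marker of type I cells, was at 5.02 and 21.1 CPM and *Scgb1a1*, of club cells, at 8.92 and 50.1.

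Of 8 immune markers 6 were lower than in all other cells, beside 4.52% of all genes. Against the *Dcn* or *Pi16* fibroblasts 1 of 2 past the filter was higher and 0 lower, beside 2.56% and 3.56%. The immune markers summed to 323 and 260 CPM against 13108 and 3535 in all other cells. *Lyz2*, which type II cells also express, was at 269 and 221. *Laptm5* and *Tyrobp* were at 1.22 to 4.32 CPM. Of 8 endothelial markers 5 were lower than in all other cells, beside the same 4.52%. The only 1 past the filter against the *Dcn* or *Pi16* fibroblasts was higher. The endothelial markers summed to 167 and 433 CPM against 180 and 2002 in all other cells, and *Tmem100* gave 148 and 404 of the former. *Cldn5* and *Emcn* were at 0 to 4.44 CPM. Of 8 pericyte genes the sum was 141 and 71.9 CPM against 82.3 and 201, most of it *Gucy1a1*, with *Cspg4*, *Higd1b*, *Notch3* and *Trpc6* at 0 to 2.76. Mesothelial genes summed to 0.279 and 0 CPM. Many genes of other lineages were thus at or near 0, and others, among them *Sftpc*, *Lyz2*, *Ager*, *Scgb1a1*, *Tmem100* and *Gucy1a1*, were counted. The part of other cells in the results was not tested.

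Nuclear *Malat1*, a long noncoding RNA, was the most abundant transcript of these lipofibroblasts at 62791 and 52754 CPM, against 33833 and 28105 in all other cells and 27272 and 23029 in the *Dcn* or *Pi16* fibroblasts. The median cell held 6.15% and 5.19% of its UMIs in *Malat1*, and the median of all other cells was 3.27% and 2.95%. Within the lipofibroblasts the level was 74486, 72417, 63204 and 53618 CPM in library 1 when the cells were split by depth into 4 bins of equal size, from the shallowest to the deepest. It was 65807, 55683, 50902 and 46928 CPM in library 2. The shallowest bins had a median of 1568 and 3500 UMIs and the deepest 4808 and 7495. *Malat1* and depth thus moved together within these cells, and the part of either in the comparisons was not tested. Every bin of both libraries was above the level of all other cells.

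The alveolar genes were present at all depths. *Slc7a10* was at 497, 416, 297 and 270 CPM over the same bins of library 1 and at 199, 200, 167 and 156 over those of library 2, each above all other cells. *Ces1d* was at 857, 661, 637 and 652 CPM and at 629, 603, 675 and 662. *Cygb* was at 10.8, 12.5, 8.72 and 14.9 CPM and at 18.7, 13.0, 21.4 and 21.5, so the low level of this adventitial gene was found at every depth. *Aldh1a1* ran from 652 in the shallowest to 842 CPM in the deepest bin of library 1 and from 1414 to 2102 in library 2.

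Differences among the lipofibroblasts were described by the ratio of variance to mean, with 1744 and 1149 cells thinned to 2000 UMIs. Over 2687 genes with a mean of at least 0.1 UMI it had a median of 1.04 and 1.04, near the value of 1 that counting alone gives. Low counts hold this ratio near 1 even where cells differ, so it does not show how many genes vary. Apart from 1 predicted gene model, it was highest for *Sftpc*, *Lyz2*, *Malat1*, *Sftpa1*, *Mt1*, *Fos*, *Jun*, *Junb*, *Mgp* and *Hspb1*. *Sftpc* had ratios of 123 and 171, with up to 347 and 276 of the 2000 UMIs in 1 cell. *Fos*, an immediate early transcription factor, had 9.75 and 7.35, and *Jun* 9.22 and 5.55.

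In single cells *Fos* had a median of 13 and 4 UMIs of 2000, while 16.5% and 26.3% of the lipofibroblasts had none and the upper 10% had at least 30 and 16. *Mt1*, a metallothionein, had a median of 0, with 81.5% and 59.4% of cells without a UMI and a largest count of 88 and 84. *Mgp*, the matrix Gla protein, had medians of 13 and 16 UMIs and was counted in nearly every cell. *Hspb1*, a small heat shock protein, had medians of 4 and 3 and reached 41 and 39. Of the alveolar genes, *G0s2* had ratios of variance to mean of 5.89 and 3.62, *Slc7a10* of 1.12 and 1.12 and *Ces1d* of 1.29 and 1.35. These genes differ in their mean count per cell, which such a ratio can follow, so their order is not read as one of variability.

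Between the libraries, 332 genes (4.05% of 8195) were at least 2-fold higher in library 2 within the *Mfap5*-negative lipofibroblasts and 218 (2.66%) at least 2-fold lower. With TMM scaling the split was 249 and 286, so the balance of directions depends on the scaling. With 1 library a side there is no test. The libraries share mouse strain, sex and age and were made on separate occasions, and the occasion, the animals and the library cannot be told apart.

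The circadian clock genes stood out. Of 10 listed genes past the filter 8 were higher in library 2 and 1 lower, beside 4.05% and 2.66% of all genes. Their median log2 ratio was 2.18 beside 0.09 over all genes. *Dbp*, a clock output factor, was at 9.48 and 249 CPM, a ratio of 26.3 (20.6 to 34.0). *Nr1d1*, the repressor REV-ERB alpha, was at 60.1 and 303 CPM, *Nr1d2* at 19.8 and 109, *Tef* at 16.9 and 109, *Hlf* at 10.0 and 79.4, and *Per3* at 10.6 and 43.2. *Arntl*, the activator BMAL1 that these repressors hold down, was at 39.5 and 3.98 CPM, 0.101 (0.0648 to 0.151) times, and its partner *Npas2* at 13.7 and 0.153. *Clock* was level at 67.6 and 67.8. All other cells showed values of the same order, with *Dbp* at 7.38 and 174 CPM and *Arntl* at 26.7 and 4.65.

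Of 8 glucocorticoid-responsive genes 6 were higher and 0 lower in library 2, beside 4.05% and 2.66% of all genes. Their median log2 ratio was 1.86 beside 0.09 over all genes. The summed level of the list rose from 3991 to 6651 CPM in the lipofibroblasts and from 4755 to 6457 in all other cells. It also rose from 7332 to 9137 in the *Dcn* or *Pi16* fibroblasts and from 5367 to 7673 in the *Hhip* or *Aspn* fibroblasts, so the rise was not particular to the lipofibroblasts. *Fkbp5*, a cochaperone of the glucocorticoid receptor, was at 3.21 and 162 CPM, the largest ratio among the genes ranked at 50.5 (33.5 to 80.1). *Zbtb16*, the transcription factor PLZF, was at 13.2 and 334, *Tsc22d3*, known as GILZ, at 195 and 1126, *Sgk1* at 82.1 and 255, and *Mt2* at 69.3 and 293. *Per1* is on this list and on the clock list, at 34.6 and 85.1. The next ranked genes were *Rtn1* at 2.23 and 66.3 CPM and *Lipg*, an endothelial lipase, at 4.60 and 62.5.

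**Figure D5:**
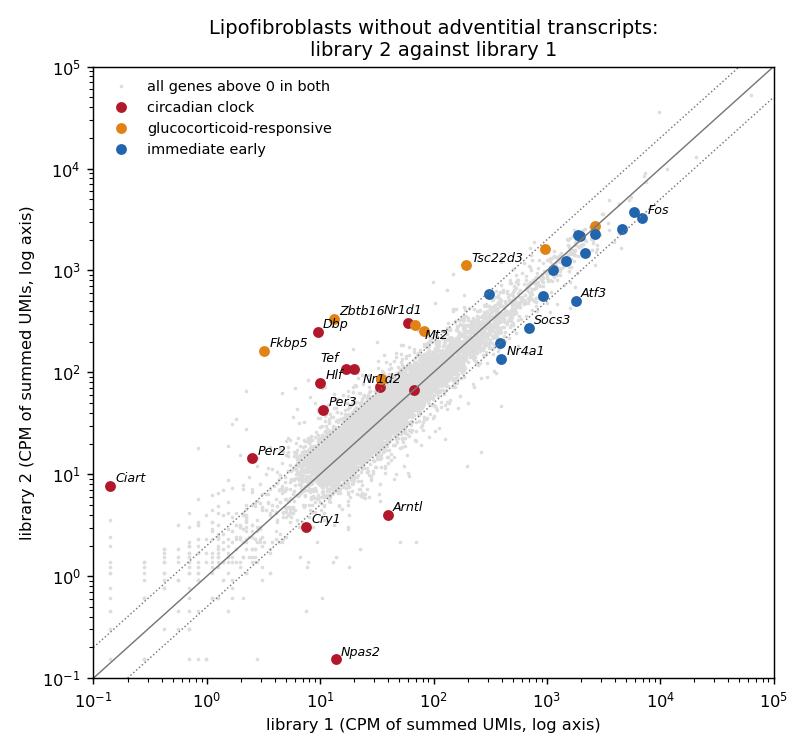
Level of each gene in the Mfap5-negative lipofibroblasts of library 2 (y axis) against library 1 (x axis), in CPM of summed UMIs on log axes, with circadian clock, glucocorticoid-responsive and immediate early genes coloured and the other genes with counts in both in light grey. The solid line is equality and the dotted lines 2-fold, and Dbp (9.48 and 249 CPM) and Fkbp5 (3.21 and 162) lie far above while Arntl (39.5 and 3.98) and Atf3 (1797 and 503) lie below.

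Immediate early genes went the other way or stayed level. Of 15 genes 0 were higher and 4 lower in library 2, beside 4.05% and 2.66% of all genes. The 4 were *Fos* at 6890 and 3296 CPM, *Atf3* at 1797 and 503, *Nr4a1* at 398 and 135 and *Socs3* at 694 and 273. The summed level of the list fell from 33137 to 22272 CPM in the lipofibroblasts and from 25770 to 19744 in all other cells. The fall was thus not particular to the lipofibroblasts. *Dusp1*, a phosphatase that is also induced by glucocorticoids, was at 1969 and 2180. The lowest ratios by rank were those of *Gdpd3*, *Hbb-bs*, *Spon2*, *Gstp1* and *Plac9b*. *Gstp1* was at 260 and 16.5 CPM with its near copy *Gstp2* at 9.90 and 1.07, and *Plac9b* at 49.5 and 4.75 with *Plac9a* at 2.09 and 0.765. In all other cells *Gstp1* was at 188 and 13.0 CPM and *Plac9b* at 40.0 and 3.56. How reads shared by such copies were counted can move these values, so they are uncertain. *Hbb-bs*, a hemoglobin of red cells, was at 50.6 and 2.14, a direction that turned when the rule was applied to thinned cells (log2 ratio 1.78). All other cells went the other way for *Hbb-bs*, at 123 and 269 CPM.

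Among the members of other lists, *Aldh1a1* and *Dgat2* were higher in library 2 and *Lrat* lower, at 0.307 (0.280 to 0.337) times. The gap in *Lrat* between the libraries ran from 294 to 90.5 CPM in the *Mfap5*-negative lipofibroblasts. It was narrower in all other cells, from 229 to 111, and in the *Dcn* or *Pi16* fibroblasts, from 387 to 247. Cells just outside, with 1 UMI of *Dcn*, *Pi16* and *Mfap5*, went alike, from 297 to 90.6 CPM. The gap was thus not particular to the lipofibroblasts. With 1 library a side these differences were not tested. *Lpin1*, a phosphatidate phosphatase, was at 19.4 and 168 CPM and *Cebpb*, a transcription factor, at 704 and 1656, both higher in library 2. *Lox*, lysyl oxidase, was at 158 and 417. Of the alveolar list *Wnt2* and *Fgfr4* were lower and the median log2 ratio of its 17 genes was 0.04.

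Most cell cycle genes were low, and the 12 listed summed to 73.6 and 70.7 CPM. *Mki67* and *Ccnb1* were at 0 in both libraries, and *Top2a*, *Birc5* and *Cdk1* at 0 to 0.459 CPM, against 10.1 CPM for *Mki67* in all other cells of library 2. *Pcna*, which is also used in DNA repair, was at 43.9 and 48.5 against 48.5 and 52.8, *Tyms*, which makes thymidylate, at 13.2 and 7.50, and *Ccnb2*, a mitotic cyclin, at 9.76 and 4.29. Of the 8 heat shock genes none was higher or lower than in all other cells, beside 0.533% and 4.52% of all genes. *Hspb1*, at 2732 and 2315 CPM against 1338 and 1400, came nearest.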

How the data were processed

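UV-positive lung cells were measured as 2 single-cell libraries. The authors deposited raw UMI counts per gene and barcode, without normalization, made with Cell Ranger 5.0.1 on mm10 per the submitters' processing notes. The libraries held 48762735 and 93970185 UMIs in 9669 and 10050 barcodes. The study's filters (at least 200 genes, at most 10% mitochondrial UMIs) left 9634 and 9988 cells. No barcode was a member in both libraries, of 23 barcodes that the libraries share.

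Counts were summed per group and library (Python 3.11.15, numpy 2.4.6, scipy 1.17.1). Exact 95% intervals (Clopper-Pearson for shares, conditional binomial for ratios) cover counting error only, and a count of 0 allows up to 3 UMIs. With cells chosen by their counts and 2 libraries, no test was run. Thinning drew 2000 UMIs per cell without replacement, which left out 445 and 22 members. Separate draws were made over all kept cells and over the members alone, the latter for single-gene counts in single members. Their values differ slightly, and in the latter draw 61.4% and 86.6% of members held no *Lrat* UMI. The sort had singlet gates, and Scrublet in scanpy 1.11.5 marked 4 and 0 cells, too few to have worked, so no cell was removed as a doublet. edgeR 4.0.16 gave TMM factors for an alternative alone. The counting and intervals were tested on simulated data.

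The members and lists were chosen with earlier results of these data known. Genes named are those of 18 lists (1 symbol was not matched and 1 gene is not reported here), the 10 highest and 10 lowest ratios against all other cells and against *Dcn* or *Pi16* fibroblasts and the 5 and 5 between libraries (mean of at least 20 CPM, ranked by the library that departs less), and the 10 highest ratios of variance to mean. Gene models named Gm or Rik were passed over (2 among the ratios and 1 by variance). The tables by adventitial UMIs, by depth and by *Sftpc*, *Gstp2* and *Plac9a* were chosen after values were seen. Positions are from GENCODE M21 on GRCm38, and the annotation used for counting is not given in the sources used here.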

Additional observations from a re-analysis of the deposited data

How the results depend on the processing

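The mean share of cells, 17.2%, was 27.5% when 1 UMI of *Dcn*, *Pi16* and *Mfap5* was allowed, 29.4% with the rule on thinned cells, 11.1% with S6 of at least 0.5%, and 11.7 to 22.7% over the 2 libraries taken alone. The 45 genes higher than in all other cells became 23 with the rule on thinned cells, 29 without the deepest 5% of cells, 20 with the mean of each cell's CPM and, chosen after seeing the data, 22 without cells with over 1% *Sftpc* UMIs. In 1 library at a time the counts were 56 to 195 higher and 422 to 576 lower than in all other cells, and 307 to 406 higher and 364 to 383 lower than in *Dcn* or *Pi16* fibroblasts. Library 1 alone gave the larger numbers of higher genes. With no filter but 1 UMI the counts were 3429 higher and 2430 lower than in all other cells, 958 and 1193 against *Dcn* or *Pi16* fibroblasts, and 2623 and 1444 between libraries, and with a mean of at least 50 CPM they were 23 and 81, 97 and 102, and 117 and 77. The number of genes tested changed with these filters. Without a filter, a gene with no UMI in a group also entered the ratio at a small floor set by that group's total. The lipofibroblasts had 7172230 and 6532976 UMIs, and all other cells 41490786 and 87275402. Genes without a UMI in the lipofibroblasts could therefore count as higher there, so the 3429 is not read as a result. At 4-fold 0 genes were higher than in all other cells, 38 were higher and 134 lower than in *Dcn* or *Pi16* fibroblasts, and 49 and 25 between libraries. The other settings, among them other S6, alveolar and mitochondrial limits, doublet scores, TMM and *Malat1* left out of the totals (chosen after seeing the data), moved these counts by under 1.5 times.

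TMM took the median log2 ratio to all other cells from 0.21 to 0.03 in library 1, that to *Dcn* or *Pi16* fibroblasts from 0.15 to 0.04 in library 1, and that between libraries from 0.09 to -0.02. Of the named genes counted as higher or lower, 755, 1044 and 604 values in these 3 comparisons moved by less than the SD over libraries (between libraries, the counting interval), 170, 169 and 58 moved by more without turning, and 8 turned. With the rule on thinned cells these were *H2-Ab1* (0.12) and *H2-Eb1* (0.20) against *Dcn* or *Pi16* fibroblasts and *Hbb-bs* against all other cells (0.28) and between libraries (1.78). Without cells with over 1% *Sftpc* UMIs they were *Fabp5* (0.10), *Sftpa1* (0.28), *Sftpb* (0.36) and *Sftpc* (0.44) against all other cells. Apart from values that change by the number of genes or cells used, the cause was not tested. With a median of 3302 and 5572 UMIs per cell, the absence of a transcript in a cell says little about its expression, and 2 libraries of unknown numbers of mice limit every level given.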
